A study of Arabidopsis thaliana with 8 samples.

Results

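The comparison described here sets roots of the hy5 mutant kept with benzyladenine (hy5 BA) against wild-type roots kept without it (WT Control), so the groups differ in both genotype and hormone. Each group has 2 libraries, which makes 4 of the 8 libraries in the series. The libraries were assigned to groups by their genotype and treatment labels, and the comparison was chosen with earlier results of these data known. The other 4 libraries, 2 of hy5 roots without benzyladenine (hy5 Control) and 2 of wild-type roots with it (WT BA), entered the same model and are given beside the comparison. All Arabidopsis thaliana plants had grown upright for 1 week on plates of 0.5x Murashige and Skoog medium before the root was cut from the shoot. Cut roots of both genotypes were then placed in liquid medium of the same strength, with 0.1 uM benzyladenine (BA) for hy5 BA and WT BA and with none for hy5 Control and WT Control. No hy5 allele or treatment length was given in the sources used here. The names of the WT Control data carry the marks COL and NAOH, but no label spells out an ecotype or a solvent. The libraries hold polyadenylated RNA of whole cut roots. Nothing in the labels says whether replicates are separate cultures, so every p-value measures only the spread between these libraries, which may be technical.

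HY5 is a bZIP transcription factor that accumulates in light and activates genes of photomorphogenesis, pigment synthesis and chloroplast development, and it binds promoters through ACGT-containing elements such as the G-box. BA is a synthetic cytokinin. Cytokinins are perceived by histidine kinase receptors, the signal passes through phosphotransfer proteins to type-B response regulators, and these activate type-A response regulators, which damp the signal, together with the oxidases that break the hormone down. In roots, cytokinin limits meristem size and lateral root formation and acts with auxin and ethylene.

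The library totals were 35289411 and 31458552 estimated counts in hy5 BA, against 33875892 and 30595295 in WT Control, and no gene took more than 0.56% of a library. In hy5 BA 2 and hy5 Control 1 many estimated counts were close to whole numbers, which sets these libraries apart from the other 6, and results are also given without both. The mutated gene followed the labels. HY5 (chromosome 5, 3593335 to 3595073, minus strand, build TAIR10.1) stood at 1.97 and 0.989 CPM in hy5 BA, against 32.4 and 31.1 CPM in WT Control, a log2 fold of -4.40 ± 0.19 (SE, n = 2 libraries each). Both hy5 BA libraries lay below both WT Control libraries, and the small remaining level shows that some HY5 reads were still assigned in the mutant. Root markers were present in both groups. The 8 root meristem and cap markers summed to 74.4 and 73 CPM in hy5 BA, against 71.2 and 74.3 CPM in WT Control, and the 4 phloem markers to 216 and 227 CPM in hy5 BA, against 221 and 198 CPM in WT Control. The 6 xylem markers summed to 469 and 452 CPM in hy5 BA, against 441 and 358 CPM in WT Control. Of 7 shoot and guard cell markers, only AS2 passed the filter on low counts, at 0.423 and 0.247 CPM in hy5 BA, against 0.351 and 0.317 CPM in WT Control, and STM, LFY, SPCH, MUTE, FAMA and FIL had at most 8 counts in any hy5 BA or WT Control library. In bulk roots, fewer cells of a type and less RNA per cell cannot be told apart.

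Of 22682 genes tested with edgeR's quasi-likelihood test, 6546 (28.9%) differed between hy5 BA and WT Control at a Benjamini-Hochberg adjusted p under 0.05, 3279 of them higher (14.5%) and 3267 lower (14.4%). These are the genes called changed in what follows. Without hy5 BA replicate 1 the count was 4179, and with hy5 BA 2 and hy5 Control 1 both left out it was 4118. A difference larger than 2-fold was tested for by itself (edgeR's glmTreat), and 440 genes (1.94%) passed, 205 higher (0.904%) and 235 lower (1.04%). A gene was counted as near the untreated wild-type level when the 95% interval of its fold lay wholly within 1.5-fold in either direction. That held for 14332 genes (63.2%), of which 2479 were also called, with a small difference. A further 4283 genes (18.9%) were neither called nor placed within 1.5-fold, so their data show neither a difference nor closeness. The CPM of the groups did not overlap for 14724 genes (64.9%), so a lack of overlap is common with 2 libraries a group. The median log2 fold over all genes was 0.01, with the 5th and the 95th percentile at -0.74 and 0.77.

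**Figure D1:**
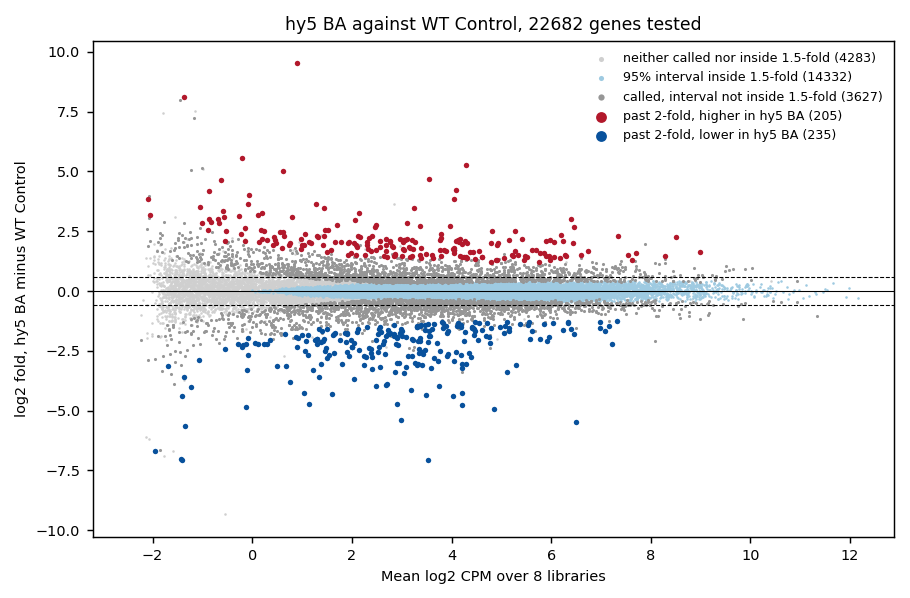
Each point is 1 of the 22682 genes tested, with its mean level over all libraries (log2 CPM) on the x axis and the log2 fold of hy5 BA over WT Control on the y axis. The dashed lines mark 1.5-fold. The 205 genes past 2-fold on the higher side and the 235 on the lower side are coloured, and the 14332 genes whose interval lies inside 1.5-fold form the central band.

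Among the genes that ended furthest above untreated wild type, some belong to the cytokinin response and others followed the genotype. ARR5, a type-A response regulator, stood at 143 and 131 CPM in hy5 BA, against 17.5 and 16.1 CPM in WT Control, a log2 fold of 3.03 ± 0.08 (edgeR adjusted p = 1.94e-12). All hy5 BA values exceeded all WT Control values several times over. WT BA had 164 and 160.2 CPM and hy5 Control 18.2 and 21.1 CPM of ARR5, so its high values came in the libraries with BA of both genotypes. AT1G19040, annotated as a NAC domain regulator and lying next to ARR7 on chromosome 1, had the same arrangement. It stood at 27 and 26.8 CPM in hy5 BA, against 1.67 and 2.12 CPM in WT Control, a log2 fold of 3.83 ± 0.16 (adjusted p = 2.79e-11), and WT BA had 39.4 and 32.1 CPM whereas hy5 Control had 1.19 and 1.55 CPM.

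The 3 largest folds among the 14 genes named on this side were of genes annotated as defensin-like, small secreted cysteine-rich proteins. AT5G33355 stood at 26.2 and 30.1 CPM in hy5 BA, against 1.17 and 0.254 CPM in WT Control, a log2 fold of 5.26 ± 0.40 (adjusted p = 2.43e-06). AT1G34047 stood at 20.7 and 17.3 CPM in hy5 BA, against 1.02 and 0.412 CPM in WT Control (4.70 ± 0.41). AT2G36255 stood at 25.3 and 27.5 CPM in hy5 BA, against 1.7 and 1.08 CPM in WT Control (4.24 ± 0.23). The groups did not overlap in any of the 14, because that was a condition for naming them. All 3 were at least as high in hy5 Control, with 47.6 and 49.4 CPM of AT5G33355, 27.2 and 23.5 of AT1G34047 and 38.8 and 36.7 of AT2G36255, and low in WT BA. AGL61, a MADS-box protein known from the central cell of the ovule, stood at 22.6 and 27.1 CPM in hy5 BA, against 4.68 and 2.82 CPM in WT Control, and hy5 Control had 23 and 33 CPM.

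A further group was raised in each single condition and highest with both. ACS5, an enzyme of ethylene synthesis (ACC synthase), stood at 16.6 and 13.6 CPM in hy5 BA, 7.5 and 6.36 in hy5 Control, 10.3 and 9.85 in WT BA and 2.02 and 2.16 in WT Control. Its log2 fold was 2.85 ± 0.15 in the combined comparison (adjusted p = 6.09e-10), 1.73 ± 0.16 for hy5 Control over WT Control and 2.27 ± 0.16 for WT BA over WT Control. IAA5, an auxin-induced Aux/IAA repressor, stood at 5.69 and 5.62 CPM in hy5 BA, 2.42 and 2.17 in hy5 Control, 3.55 and 4.61 in WT BA and 0.965 and 0.666 in WT Control, a combined log2 fold of 2.78 ± 0.23. The highest of the 4 groups was hy5 BA for both genes. Other genes among the 14 were barely present in WT Control but differed from each other in the single conditions. AT1G06980, annotated as a lumazine synthase, stood at 3.78 and 3.52 CPM in hy5 BA, against 0.292 and 0.285 CPM in WT Control. AT1G34520, annotated as an MBOAT acyltransferase, stood at 4.17 and 3.71 CPM in hy5 BA, against 0.351 and 0.349 CPM in WT Control. AT1G28660, annotated as a GDSL lipase, stood at 7.92 and 8.62 CPM in hy5 BA, against 0.731 and 0.983 CPM in WT Control. All 3 were without overlap, as were the C2H2 zinc finger gene AT1G68360 (2.78 ± 0.17), the CAP protein gene AT4G33720 (3.45 ± 0.51) and the LEA protein gene AT3G15670 (2.98 ± 0.31).

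**Figure D2:**
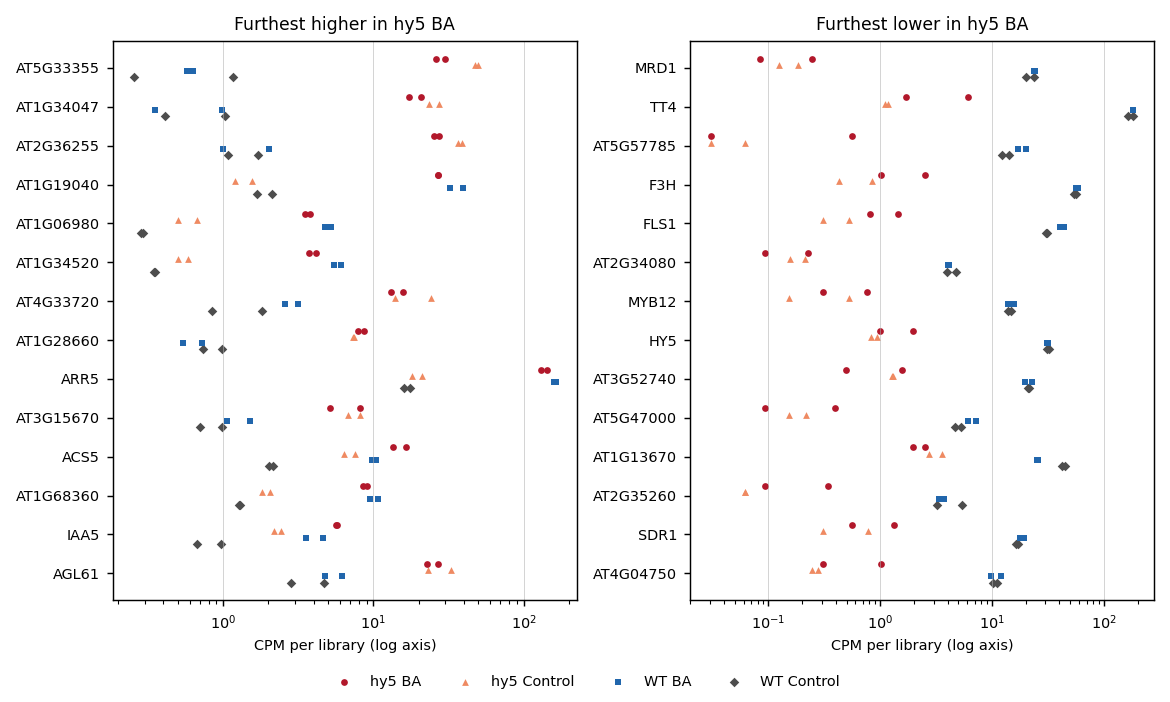
Level in CPM (log axis) of the 14 genes furthest above and the 14 furthest below WT Control, in every library of hy5 BA, hy5 Control, WT BA and WT Control. ARR5, AT1G19040, AT1G06980, AT1G34520 and AT1G68360 are high wherever BA was given. The defensin-like genes and all of the lower genes separate the hy5 libraries from the WT libraries.

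Among the cytokinin lists, every type-A response regulator and 5 of 9 genes of breakdown and conjugation were higher in hy5 BA. All 10 of the type-A response regulators rose, 7 of them past 2-fold, with a median log2 fold of 1.97 against 0.01 for all genes tested. ARR7 stood at 134 and 111 CPM in hy5 BA, against 18.6 and 20.1 CPM in WT Control (log2 fold 2.67 ± 0.12). ARR6 stood at 47.1 and 40.2 CPM in hy5 BA, against 7.4 and 7.74 CPM in WT Control (2.53 ± 0.10). Both were many times higher in hy5 BA, without overlap. ARR8 and ARR3 had the smallest folds, 0.61 ± 0.07 and 0.64 ± 0.10. The median of the list was 0.08 in hy5 Control over WT Control and 1.97 in WT BA over WT Control. ARR16 was the member with a single difference of more than 2-fold in each, 1.26 and 1.33, and it stood at 6.54 and 6.58 CPM in hy5 BA, against 1.64 and 1.81 CPM in WT Control.

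Of 9 tested genes for cytokinin breakdown and conjugation, 5 rose, 4 of them past 2-fold, and none fell (median log2 fold 1.38). Of all genes 14.5% were higher and 14.4% lower. CKX6, a cytokinin oxidase, stood at 97.3 and 90.6 CPM in hy5 BA, against 19.4 and 24.6 CPM in WT Control, a log2 fold of 2.10 ± 0.14, and CKX5 at 36 and 37.1 CPM in hy5 BA, against 12.1 and 10.5 CPM in WT Control, a fold of 1.69 ± 0.08. CKX4 reached a similar fold, 1.86 ± 0.13, at 10.6 and 11.6 CPM in hy5 BA, against 3.1 and 2.98 CPM in WT Control. The single differences of these genes were unlike: the folds of CKX4 were 1.85 in hy5 Control and -0.01 in WT BA, whereas those of CKX6 were 0.58 and 2.05. UGT76C1 and UGT76C2, which glucosylate cytokinins, and the oxidase CKX7 were near the WT Control level.

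Of 14 genes of synthesis 4 were higher, 3 lower and 7 near (median log2 fold 0.04), beside 14.5%, 14.4% and 63.2% of all genes. CYP735A2, which hydroxylates cytokinins to the trans-zeatin type, stood at 73.2 and 69.3 CPM in hy5 BA, against 23.5 and 20.1 CPM in WT Control (1.71 ± 0.10). LOG2, of the family that releases active cytokinin, stood at 10.1 and 9.27 CPM in hy5 BA, against 2.28 and 1.65 CPM in WT Control (2.29 ± 0.19). The isopentenyltransferases IPT5 and IPT3, which make the first step, fell, with log2 folds of -1.08 ± 0.11 and -0.99 ± 0.12, and IPT5 stood at 7.21 and 7.72 CPM in hy5 BA, against 17.3 and 14.2 CPM in WT Control. Among 15 receptors, phosphotransfer proteins and type-B regulators, 4 were higher and 6 lower, none past 2-fold. The 4 became 2 without hy5 BA replicate 1 and also without WT Control replicate 1. The receptor WOL rose, with 83.8 and 80.3 CPM in hy5 BA, against 53.6 and 53.8 CPM in WT Control (0.61 ± 0.07), and the receptor AHK2 fell, with 23 and 26.2 CPM in hy5 BA, against 39.9 and 36.2 CPM in WT Control (-0.63 ± 0.09).

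In the list of 9 cytokinin response factors and cytokinin-induced genes, 3 were higher and 1 lower. Over all genes 14.5% were higher and 14.4% lower, so the share lower in this list was under that of all genes. LBD3, a LOB domain protein induced early by cytokinin, stood at 15.9 and 14.4 CPM in hy5 BA, 2.39 and 3.79 in hy5 Control, 37.5 and 35.1 in WT BA and 4.3 and 5.11 in WT Control. It was therefore above WT Control (1.69 ± 0.15) and below WT BA (a log2 fold of -1.26 ± 0.12, adjusted p = 2.39e-06). The expansin EXPA1 went the other way, at 40.0 and 34.1 CPM in hy5 BA, against 121 and 134 CPM in WT Control (-1.78 ± 0.09), with a fold of -2.06 in hy5 Control and 0.30 in WT BA.

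The genes that ended furthest below untreated wild type included several of the flavonoid pathway, whose first enzyme is chalcone synthase, TT4. TT4 stood at 6.06 and 1.7 CPM in hy5 BA, against 183 and 164 CPM in WT Control, a log2 fold of -5.46 ± 0.46 (adjusted p = 0.00111). Both hy5 BA values were a small fraction of the WT Control values, though they differed from each other. F3H, flavanone 3-hydroxylase, stood at 2.51 and 1.02 CPM in hy5 BA, against 56 and 54.3 CPM in WT Control (-4.94 ± 0.29, adjusted p = 2.50e-06). FLS1, flavonol synthase, stood at 1.44 and 0.803 CPM in hy5 BA, against 31.1 and 30.2 CPM in WT Control (-4.75 ± 0.20, adjusted p = 1.11e-11). MYB12, a transcription factor that activates flavonol synthesis in roots, stood at 0.761 and 0.309 CPM in hy5 BA, against 14 and 14.7 CPM in WT Control (-4.71 ± 0.35, adjusted p = 6.05e-08). A lack of overlap between the groups was a condition for naming these genes. In WT BA the levels were 181 and 183 CPM for TT4, 58.9 and 56.8 for F3H, 40.5 and 44.2 for FLS1 and 13.8 and 15.7 for MYB12, and in hy5 Control they were 1.1 and 1.18, 0.428 and 0.838, 0.306 and 0.528 and 0.153 and 0.528 CPM. Of the 19 tested members of the flavonoid list 11 were lower, 9 of them past 2-fold, none was higher and 3 were near. The median log2 fold was -1.18 against 0.01 for all genes, of which 14.4% were lower, 14.5% higher and 63.2% near. The 11 included the chalcone isomerase TT5 (-3.37 ± 0.17), the flavonoid 3'-hydroxylase TT7 (-3.24 ± 0.21) and the glucosyltransferase UGT78D2 (-1.55 ± 0.08). Of the 8 general phenylpropanoid enzymes, which supply the precursors, none was lower, 3 were higher and 5 near, the share near being close to that of all genes. The 3 higher were PAL3 (1.09 ± 0.20), PAL4 (0.85 ± 0.11) and 4CL5 (0.46 ± 0.07). The phenylalanine ammonia-lyase PAL1 stood at 1325 and 1291 CPM in hy5 BA, against 1346 and 1321 CPM in WT Control.

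The 250 bases before the annotated start of 4 of the 14 furthest lower genes are shown because each holds the G-box, CACGTG, to which HY5 is known to bind. The sequences are from RefSeq, build TAIR10.1, 5' to 3' along the gene, with the G-box in capitals. TT4 is taken from chr5:4488226-4488475 (plus strand), F3H from chr3:19024942-19025191 (plus strand), MYB12 from chr2:19476076-19476325 (plus strand) and the peroxidase gene AT5G47000 from chr5:19070334-19070583 (minus strand).
TT4: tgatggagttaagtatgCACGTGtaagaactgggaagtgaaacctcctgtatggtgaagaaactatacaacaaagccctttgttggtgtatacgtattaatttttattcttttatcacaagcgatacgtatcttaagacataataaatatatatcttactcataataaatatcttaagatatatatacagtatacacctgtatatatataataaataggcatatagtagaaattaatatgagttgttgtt
F3H: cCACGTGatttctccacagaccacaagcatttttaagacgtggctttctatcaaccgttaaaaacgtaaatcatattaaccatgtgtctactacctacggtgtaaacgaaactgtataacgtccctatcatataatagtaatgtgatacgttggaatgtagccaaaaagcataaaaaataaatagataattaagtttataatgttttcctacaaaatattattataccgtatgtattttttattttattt
MYB12: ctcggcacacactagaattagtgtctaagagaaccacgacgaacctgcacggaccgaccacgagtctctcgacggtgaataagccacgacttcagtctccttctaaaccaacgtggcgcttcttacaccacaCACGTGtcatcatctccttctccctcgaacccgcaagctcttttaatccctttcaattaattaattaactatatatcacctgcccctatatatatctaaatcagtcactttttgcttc
AT5G47000: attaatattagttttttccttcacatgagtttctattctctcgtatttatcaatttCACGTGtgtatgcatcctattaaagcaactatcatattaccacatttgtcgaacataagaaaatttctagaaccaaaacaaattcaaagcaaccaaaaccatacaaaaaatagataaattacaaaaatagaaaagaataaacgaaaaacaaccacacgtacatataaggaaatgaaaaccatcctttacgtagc
No CACGTG was in this window of the other 10 lower genes or of the 14 furthest higher genes. The motif begins 233 bases before the start in TT4, 249 in F3H, 118 in MYB12 and 194 in AT5G47000. CACGTG, searched on both strands, was in 30 of 228 promoters of the genes past 2-fold lower (13.2%), in 21 of 205 past 2-fold higher (10.2%), and in 1601 of 22536 of all nuclear genes tested (7.1%). The share was also 13.2% (26 of 197) in genes first higher in hy5 Control and near WT Control in hy5 BA, described below. In those first lower it was 10.8% (4 of 37). The core ACGTG, which overlaps the G-box, was in 40.4% of the lower, 31.2% of the higher and 23.8% of all promoters. AGATT, a core motif known for type-B response regulators, was in 62.7%, 58.5% and 63.1%. A match describes the letters in this window and does not show binding.

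HYH, the closest relative of HY5, stood at 1.75 and 1.7 CPM in hy5 BA, against 10.8 and 10.8 CPM in WT Control, a log2 fold of -2.65 ± 0.16 (adjusted p = 2.54e-09). The gap between the groups was wide beside the spread within them. Of 31 genes of HY5 and light signalling, 22 were lower, 8 of them past 2-fold, and 11 were near (median log2 fold -0.55). Over all genes 14.4% were lower and 63.2% near. BBX25 was the 1 member called higher, and it lost that call in 13 of the other settings tried. CRY3, a cryptochrome of the DASH type, stood at 1.86 and 1.36 CPM in hy5 BA, against 25.2 and 25 CPM in WT Control (-3.95 ± 0.14). ELIP1, an early light-induced protein, stood at 1.8 and 1.36 CPM in hy5 BA, against 13.6 and 11.8 CPM in WT Control (-3.00 ± 0.22). SPA3 and SPA4, partners of the ubiquitin ligase COP1, had folds of -2.10 ± 0.13 and -2.47 ± 0.16. The photoreceptors PHYB and CRY1 had smaller folds. PHYB stood at 30.6 and 33.1 CPM in hy5 BA, against 50.8 and 49.3 CPM in WT Control (-0.65 ± 0.08). CRY1 stood at 26.3 and 28.6 CPM in hy5 BA, against 35 and 34.3 CPM in WT Control, with a fold of -0.34 ± 0.07 that lay inside 1.5-fold.

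Nuclear photosynthesis genes were detected in wild-type roots and were mostly lower in hy5 BA. The 56 tested members summed to 244.5 and 256.9 CPM in hy5 BA, 144.7 and 200.4 CPM in hy5 Control, 847 and 725 CPM in WT BA and 686 and 801 CPM in WT Control. Of the 56, 43 were lower, 22 past 2-fold, and 1 was near, with a median log2 fold of -1.6. Among all genes 14.4% were lower and 63.2% near. The count of lower members lay between 34 and 45 when single libraries were left out. Both hy5 groups lay below both WT groups, and the summed level was higher in hy5 BA than in hy5 Control. PSBO1 and PSBR, subunits of photosystem II, were both lower without overlap. PSBO1 stood at 9.66 and 9.79 CPM in hy5 BA, against 40.3 and 46.5 CPM in WT Control (-2.16 ± 0.09). PSBR stood at 19.8 and 17.1 CPM in hy5 BA, against 75.6 and 71.7 CPM in WT Control (-1.99 ± 0.08). RBCS1A, a small subunit of Rubisco, stood at 12.3 and 12.8 CPM in hy5 BA, against 41.7 and 48.7 CPM in WT Control (-1.85 ± 0.34). The 2 members called higher, RBCS2B and RBCS1B, are small subunit copies (RBCS2B nearly identical to RBCS3B) at under 1.5 CPM in every hy5 BA and WT Control library, and the number of members called higher lay between 0 and 6 without single libraries. Of 18 genes of chlorophyll synthesis 9 were lower, none higher and 6 near. CHLH, a subunit of magnesium chelatase, stood at 3.97 and 4.29 CPM in hy5 BA, against 35.2 and 33.5 CPM in WT Control (-3.06 ± 0.12), and CHLG, chlorophyll synthase, had a fold of -3.08 ± 0.19. The upstream tetrapyrrole genes HEMA1 and GSA1 were near, with HEMA1 at 101 and 92.4 CPM in hy5 BA, against 108 and 109.8 CPM in WT Control. Of the 7 shoot and guard cell markers named earlier, AS2 stood at 0.423 and 0.247 CPM in hy5 BA, 0.949 and 0.683 in hy5 Control, 0.427 and 0.48 in WT BA and 0.351 and 0.317 in WT Control. It was called higher in hy5 Control against WT Control (log2 fold 1.28 ± 0.39, adjusted p = 0.0186), and the other 6 had at most 8 counts in any library.

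Other genes far below WT Control are given by the annotation used here, which calls AT5G57785, AT3G52740 and AT1G13670 uncharacterized. MRD1 had the most negative fold of those named, -7.05 ± 0.43 (adjusted p = 1.95e-12), at 0.0845 and 0.247 CPM in hy5 BA, against 20.3 and 23.7 CPM in WT Control. AT5G57785 stood at 0.564 and 0.0309 CPM in hy5 BA, against 14.1 and 12.2 CPM in WT Control, AT3G52740 had a fold of -4.33 ± 0.31 and AT2G35260, annotated as a CAAX protease, one of -4.25 ± 0.51. AT1G13670 was lower in each single condition. It stood at 2.54 and 1.95 CPM in hy5 BA, 2.75 and 3.54 in hy5 Control, 25.8 and 25 in WT BA and 41.8 and 44.9 in WT Control. Of the genes past 2-fold lower, 6.11% lay within 2000000 bases of HY5 on chromosome 5, against 0.98% of those past 2-fold higher and 4.64% of all genes tested.

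The furthest genes were also set beside the single differences. The genes past 2-fold higher had a median log2 fold of 2.02 in hy5 BA over WT Control, 1.54 in hy5 Control over WT Control and 0.72 in WT BA over WT Control. The genes past 2-fold lower had medians of -2.1, -2.19 and 0.01. The 3 comparisons share the WT Control libraries, so these values are given side by side and their likeness is not a result. Across all genes 5696 (25.1%; 13.7% higher and 11.4% lower) were called in hy5 Control against WT Control and 1861 (8.2%; 3.88% higher and 4.33% lower) in WT BA against WT Control. The first split was 3103 higher and 2593 lower, but 2303 and 4263 with library size alone, and its total was 3685 without hy5 Control replicate 1. The second split was 879 higher and 982 lower, but 612 and 320 without WT Control replicate 1 and 513 and 328 without WT BA replicate 2, with totals of 932 and 841.

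**Figure D3:**
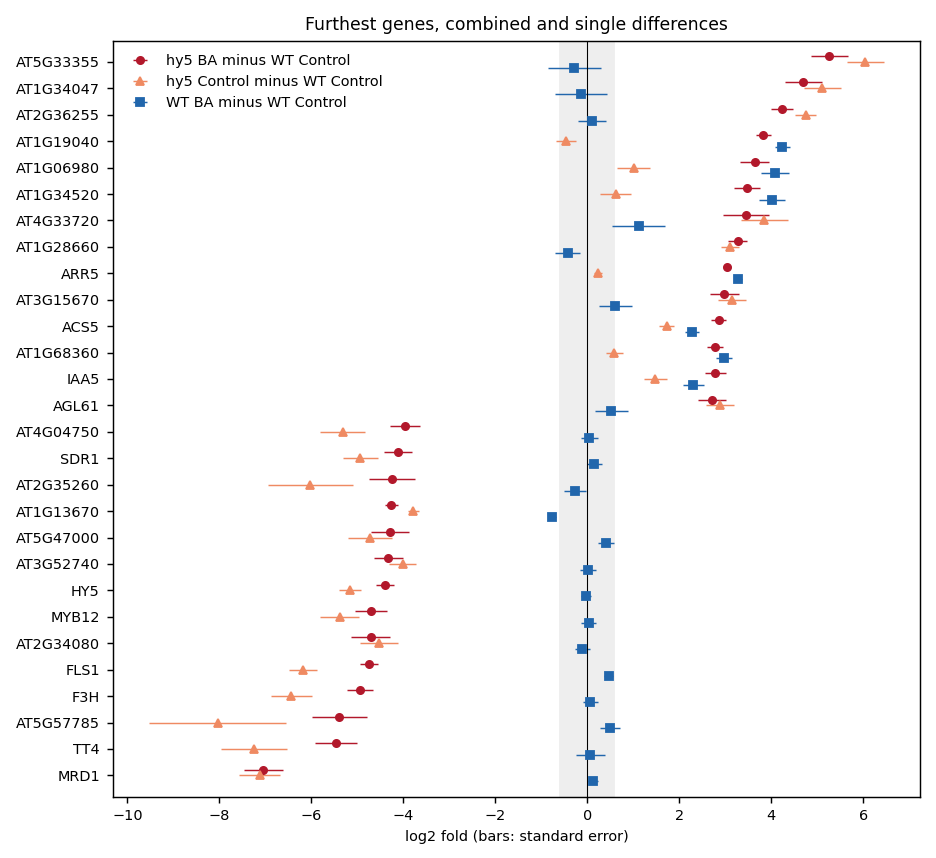
Log2 fold ± SE of the same 28 genes in hy5 BA over WT Control, hy5 Control over WT Control and WT BA over WT Control, which share the WT Control libraries. The grey band marks 1.5-fold. ARR5 and AT1G19040 have hy5 Control values near 0 and high WT BA values, and the 14 lower genes have low hy5 Control values.

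Whether the combined difference departed from the sum of the single ones was tested as the genotype by BA interaction on the log2 scale. Of all genes, 110 (0.485%) were called, 11 with a combined value above the sum (0.0485%) and 99 below it (0.436%). The split was 22 above and 39 below with library size alone, and 12 and 11 without hy5 Control replicate 2. Single libraries decide the count. It was 331 without WT Control replicate 1 and 271 without hy5 BA replicate 1, and it was 14 and 17 without WT BA replicate 1 and 2, 7 and 23 without hy5 Control replicate 1 and 2, and 6 without hy5 BA replicate 2. The 3 genes given next kept their call in each such run, but from scaled TPM values edgeR called 0 genes (2662 at an unadjusted p under 0.05, lowest adjusted p = 0.182), and DESeq2 called 294 from the counts. With hy5 BA 2 and hy5 Control 1 both left out, 6 genes were called, 3 above and 3 below, and AT3G28600 (adjusted p = 0.0505) and AT4G22620 (adjusted p = 0.0867) lost the call. DESeq2 gave no adjusted p for AT5G36670. AT3G28600, annotated as a P-loop nucleoside triphosphatase, stood at 77.5 and 67.7 CPM in hy5 BA, 70.3 and 65.7 in hy5 Control, 57.8 and 50.1 in WT BA and 23.7 and 25.1 in WT Control, an interaction of -1.05 ± 0.12 (adjusted p = 0.00311). Each single condition brought it most of the way to the level seen with both. AT4G22620, annotated as SAUR-like, stood at 24.7 and 20.7, 20.8 and 18.3, 20.4 and 21.9 and 8.07 and 8.4 CPM in hy5 BA, hy5 Control, WT BA and WT Control, an interaction of -1.14 ± 0.14 (adjusted p = 0.00516). AT5G36670, which shares 70.8% of its length at 100% identity with AT5G36740 and is uncertain to that extent, was at 0 in both WT Control libraries and at 2.25 and 3.4 CPM in hy5 BA, at least 28.8-fold higher against a floor of 3 counts per library. The type-A regulator ARR4 stood at 123 and 115 CPM in hy5 BA, 31.3 and 33.9 in hy5 Control, 165 and 161 in WT BA and 29.4 and 29.9 in WT Control. Its interaction was -0.59 ± 0.10 (adjusted p = 0.0211), and the adjusted p reached 0.143 without single libraries. ACS5 had an interaction of -1.15 ± 0.20 (adjusted p = 0.0211, up to 0.131).

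Most wounding and jasmonate genes were higher in hy5 BA. Of 22 tested, 18 were higher, 2 of them past 2-fold, with a median log2 fold of 0.79, and 4 were near. Among all genes 14.5% were higher, 14.4% lower and 63.2% near. JAZ10, a repressor of jasmonate signalling induced by the hormone, stood at 91.1 and 82.1 CPM in hy5 BA, against 31.7 and 32 CPM in WT Control (1.44 ± 0.07, adjusted p = 6.83e-10). AOS, an early enzyme of jasmonate synthesis, stood at 216 and 193 CPM in hy5 BA, against 101 and 84.8 CPM in WT Control (1.14 ± 0.09). Neither gene overlapped between groups. The median of the list was 0.97 in hy5 Control and 0.06 in WT BA. AOC2, an allene oxide cyclase, had single folds of 0.64 and 1.39 and stood at 35.9 and 26.8 CPM in hy5 BA, against 7.52 and 7.64 CPM in WT Control (2.05 ± 0.13). VSP2 was the 1 member called lower, at 50.6 and 32.9 CPM in hy5 BA, against 99.2 and 144 CPM in WT Control. It lost that call with the replicate block and without either WT Control library, either hy5 Control library or hy5 BA replicate 2.

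Genes of low oxygen and fermentation were mostly lower: 8 of 10 were lower and none was near, with a median log2 fold of -0.66. The shares of all genes were 14.5% higher, 14.4% lower and 63.2% near. SUS4, a sucrose synthase, stood at 32.9 and 29.2 CPM in hy5 BA, against 63.8 and 63.9 CPM in WT Control (-1.04 ± 0.08). HRE1, an ethylene response factor of hypoxia, stood at 22.5 and 18.8 CPM in hy5 BA, against 39.8 and 38.5 CPM in WT Control (-0.92 ± 0.09). Both WT Control values exceeded both hy5 BA values in each. Of 18 ethylene genes 5 were higher and 9 lower, and 5 were lower without hy5 BA replicate 2. The ACC synthases ACS5, ACS2 and ACS8 rose, with ACS2 at 48.4 and 48.3 CPM in hy5 BA, against 13.3 and 11.9 CPM in WT Control (1.94 ± 0.10), whereas the receptors ERS1 (-0.78 ± 0.08) and ETR2 (-1.18 ± 0.18) and the F-box gene EBF2 (-0.87 ± 0.10) fell.

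Other hormone and nutrient lists held members called in both directions, which are to be read beside 14.5% higher, 14.4% lower and 63.2% near among all genes. Of 17 auxin-induced genes 7 were higher and 5 lower: IAA19 stood at 29 and 25.3 CPM in hy5 BA, against 17 and 16.6 CPM in WT Control (0.70 ± 0.09). IAA2 stood at 161 and 143 CPM in hy5 BA, against 251 and 251 CPM in WT Control (-0.72 ± 0.07). Of 27 nitrogen genes 7 were higher, 5 lower and 18 near, and the shares lower and near were close to those of all genes. ASN1, an asparagine synthetase, stood at 111 and 115 CPM in hy5 BA, against 19.9 and 24.5 CPM in WT Control (2.35 ± 0.09), with a hy5 Control fold of 2.62 and a WT BA fold of -0.22. Of 23 iron genes 6 were higher and 2 lower, the lower share being under that of all genes, and the 2 became 1 without hy5 BA replicate 2. The iron transporter gene IRT2 stood at 25.5 and 24.1 CPM in hy5 BA, against 7.96 and 6.69 CPM in WT Control (1.76 ± 0.11). Of 19 phosphate and sulfate genes 10 were lower and 2 higher, and without hy5 BA replicate 2 the 10 became 6 and the 2 became 0. The 2 became 1 without WT Control replicate 1 and also without hy5 BA replicate 1. With hy5 BA 2 and hy5 Control 1 both left out, 4 auxin-induced genes were higher, 3 nitrogen genes lower, 3 iron genes higher and 1 lower, and 4 phosphate and sulfate genes lower. Of 12 abscisic acid and drought genes 4 were higher, 1 without hy5 BA replicate 1, and 3 lower, among them the transcription factor ABI5 (-1.52 ± 0.22). The dehydrin RAB18 stood at 13.1 and 11.2 CPM in hy5 BA, against 3.07 and 2.44 CPM in WT Control (2.13 ± 0.16).

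The lists that follow are likewise to be read beside 14.5% higher, 14.4% lower and 63.2% near among all genes. Of 16 clock genes 7 were lower, 3 higher and 9 near, the shares higher and near being close to those of all genes. The morning genes LHY and CCA1 fell, with LHY at 9.52 and 8.9 CPM in hy5 BA, against 39.6 and 37.3 CPM in WT Control (-2.06 ± 0.08). CCA1 stood at 17.7 and 16.9 CPM in hy5 BA, against 39.5 and 36.6 CPM in WT Control (-1.14 ± 0.08). Of 12 root hair genes 6 were lower and 3 higher. LRX1, a wall protein of growing hairs, fell (-1.04 ± 0.12), and the bHLH factor RSL4, which promotes hair growth, rose, with 11.6 and 9.05 CPM in hy5 BA, against 5.82 and 5.39 CPM in WT Control (0.88 ± 0.13). Of 9 plasma membrane aquaporins 4 were higher and 1 lower, with PIP1;2 at 1191 and 1231 CPM in hy5 BA, against 667 and 634 CPM in WT Control (0.90 ± 0.08). PIP2;3 stood at 79.3 and 77.6 CPM in hy5 BA, against 216 and 221 CPM in WT Control (-1.48 ± 0.07). Of 17 glucosinolate and ER body genes 7 were higher and 4 lower, the 4 being 2 without hy5 BA replicate 2 and without WT Control replicate 1. BGLU22 and NAI1 of the root ER body rose, with log2 folds of 0.86 ± 0.08 and 0.97 ± 0.07.

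**Figure D4:**
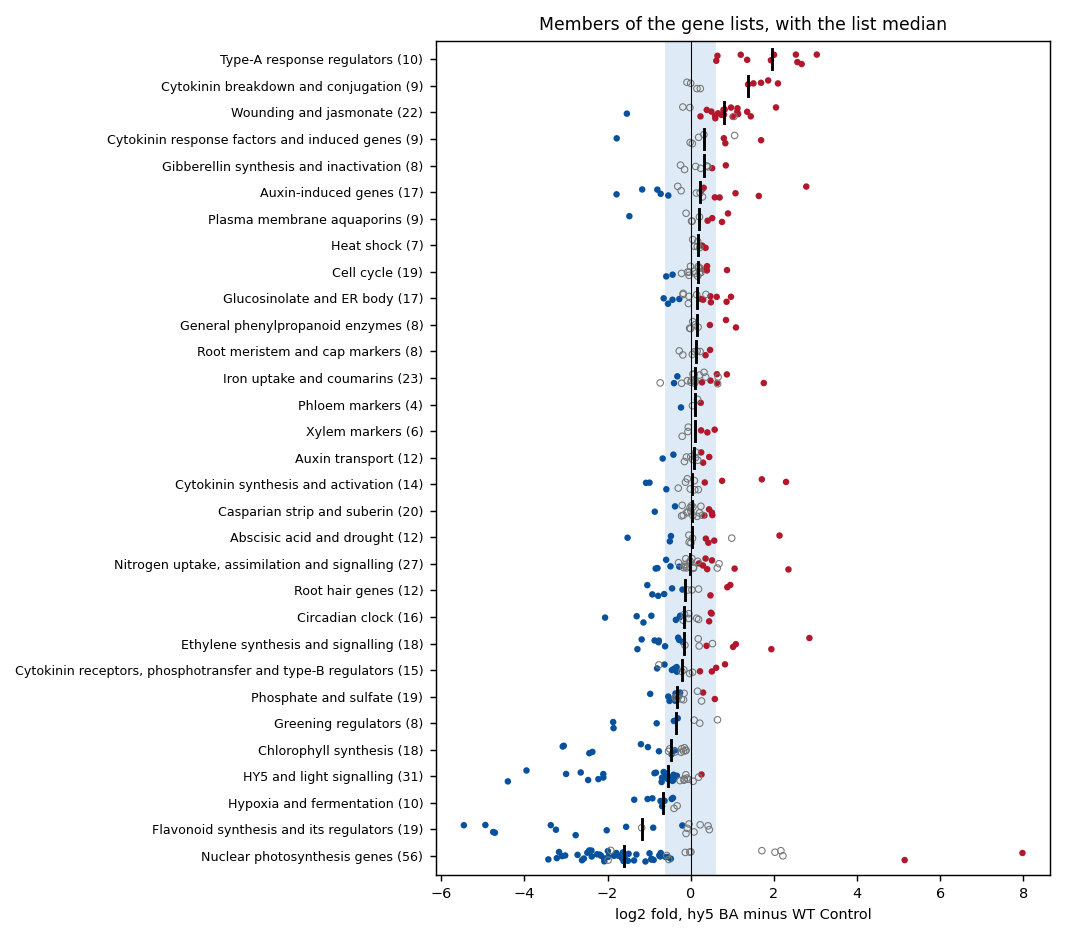
Log2 fold of hy5 BA over WT Control for every tested member of each gene list, filled where called and open where not, with the median of the list as a black tick. The shaded band marks 1.5-fold. Type-A regulators lie wholly to the right and most photosynthesis members to the left, while cell cycle, Casparian strip and heat shock members lie mostly inside the band.

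Among the lists with most members near the untreated wild-type level were those of barrier tissue, cell division, auxin transport and heat shock. Of 20 Casparian strip and suberin genes 16 were near, of 19 cell cycle genes 15, of 12 auxin transport genes 10 and of 7 heat shock genes 7, against 63.2% of all genes. A near gene can also be called, and 2 of the heat shock genes were called higher, 6 without WT Control replicate 1 and 1 when WT Control replicate 2 or any single hy5 Control or hy5 BA library was left out. Of the auxin transport genes 3 were called higher, 1 without either hy5 BA library, and 2 lower, 1 without hy5 BA replicate 2. CASP1, which marks the Casparian strip domain, stood at 252 and 231 CPM in hy5 BA, against 213 and 195 CPM in WT Control (log2 fold 0.24 ± 0.09), the mitotic cyclin CYCB1;2 at 21.6 and 21.7 CPM in hy5 BA, against 19.3 and 21.7 CPM in WT Control (0.08 ± 0.09), and the auxin efflux carrier PIN2 at 70.4 and 70.5 CPM in hy5 BA, against 64.2 and 72.3 CPM in WT Control (0.05 ± 0.08). Members outside the limit included the fatty acyl reductase FAR1 of suberin synthesis, at 43.6 and 40.5 CPM in hy5 BA, against 77.9 and 75.4 CPM in WT Control (-0.87 ± 0.07). SMR1, a cell cycle inhibitor, stood at 4.62 and 3.95 CPM in hy5 BA, against 2.22 and 2.47 CPM in WT Control (0.87 ± 0.17). Of 8 gibberellin genes 2 were higher, and 1 without WT Control replicate 2 or either hy5 BA library, and of 8 greening regulators 5 were lower, 2 without hy5 BA replicate 1. Among the markers, 2 of 8 for meristem and cap and 3 of 6 for xylem were higher, beside 14.5% of all genes. The first count was 0 without either WT Control library or hy5 BA replicate 1, and the second 0 without WT Control replicate 2. Of the 4 phloem markers all were near.

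A smaller number of genes were near the untreated wild type although the mutation alone had moved them. Of 2518 genes called and at least 1.5-fold different in hy5 Control against WT Control, 269 were near WT Control in hy5 BA, 215 of 1355 that had been higher and 54 of 1163 that had been lower. Of these, 237 were also called in the opposite direction in hy5 BA against hy5 Control, 197 first higher and 40 first lower. With library size as the only scaling the split was 109 and 82, and without hy5 BA replicate 2 the total was 130, or 73 with hy5 Control 1 left out too. These genes were picked by their measured values, so their levels are a description with no test. The 197 had a median log2 fold of 0.71 in hy5 Control, -0.60 in hy5 BA over hy5 Control and 0.17 in hy5 BA over WT Control. In hy5 BA against hy5 Control as a whole, 2523 genes (11.1%) were called, 706 higher (3.11%) and 1817 lower (8.01%), and 1712 higher and 1285 lower with library size alone. The calls numbered 1355 without hy5 Control replicate 1, 1191 without hy5 Control replicate 2 and 1088 without hy5 BA replicate 2.

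LBD16, a LOB domain protein that promotes lateral root initiation downstream of auxin, stood at 4.51 and 5.28 CPM in hy5 BA, 10.1 and 9.19 in hy5 Control, 2.76 and 3.1 in WT BA and 4.53 and 3.81 in WT Control. Its hy5 BA values thus overlapped those of WT Control, and the interval of its log2 fold ran from -0.08 to 0.53. AT3G63380, annotated as a P-type ATPase, stood at 106 and 96 CPM in hy5 BA, 192 and 203 in hy5 Control, 57.5 and 59.5 in WT BA and 87.2 and 82.3 in WT Control. AT2G38240, annotated as a 2-oxoglutarate oxygenase, was the most abundant of those named, at 621 and 506 CPM in hy5 BA, 1057 and 1138 in hy5 Control, 359 and 320.5 in WT BA and 492 and 405 in WT Control. ERD9, a glutathione S-transferase, stood at 72.4 and 66.8 CPM in hy5 BA, against 53 and 51.8 CPM in WT Control. Though inside the limit, AT3G63380, AT2G38240 and ERD9 were all still called higher than WT Control. Of the 40 first lower, CBF1, a factor of the cold response, stood at 12.5 and 13.3 CPM in hy5 BA, 5.78 and 6.8 in hy5 Control, 16.1 and 20.6 in WT BA and 12.7 and 14.1 in WT Control, an interval of -0.30 to 0.20. HSL1, a receptor-like kinase, stood at 36.2 and 37.1, 22.9 and 24, 76.8 and 66.6 and 45.7 and 50.4 CPM in the same groups. In hy5 BA HSL1 was still called lower than WT Control (-0.39 ± 0.08). LBD4, a LOB domain protein, differed most between WT BA and WT Control among those named, with 4.82 and 4.63 CPM in hy5 BA, 1.93 and 1.55 in hy5 Control, 16.4 and 17 in WT BA and 3.6 and 4.16 in WT Control, an interval that ran from just under 0 to 0.58. When each library was left out in turn, HSL1 was near in only 3 of 8 runs and LBD4 in 4 of 8, whereas LBD16, AT2G38240 and ERD9 were near in 6 and AT3G63380 and CBF1 in all 8.

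**Figure D5:**
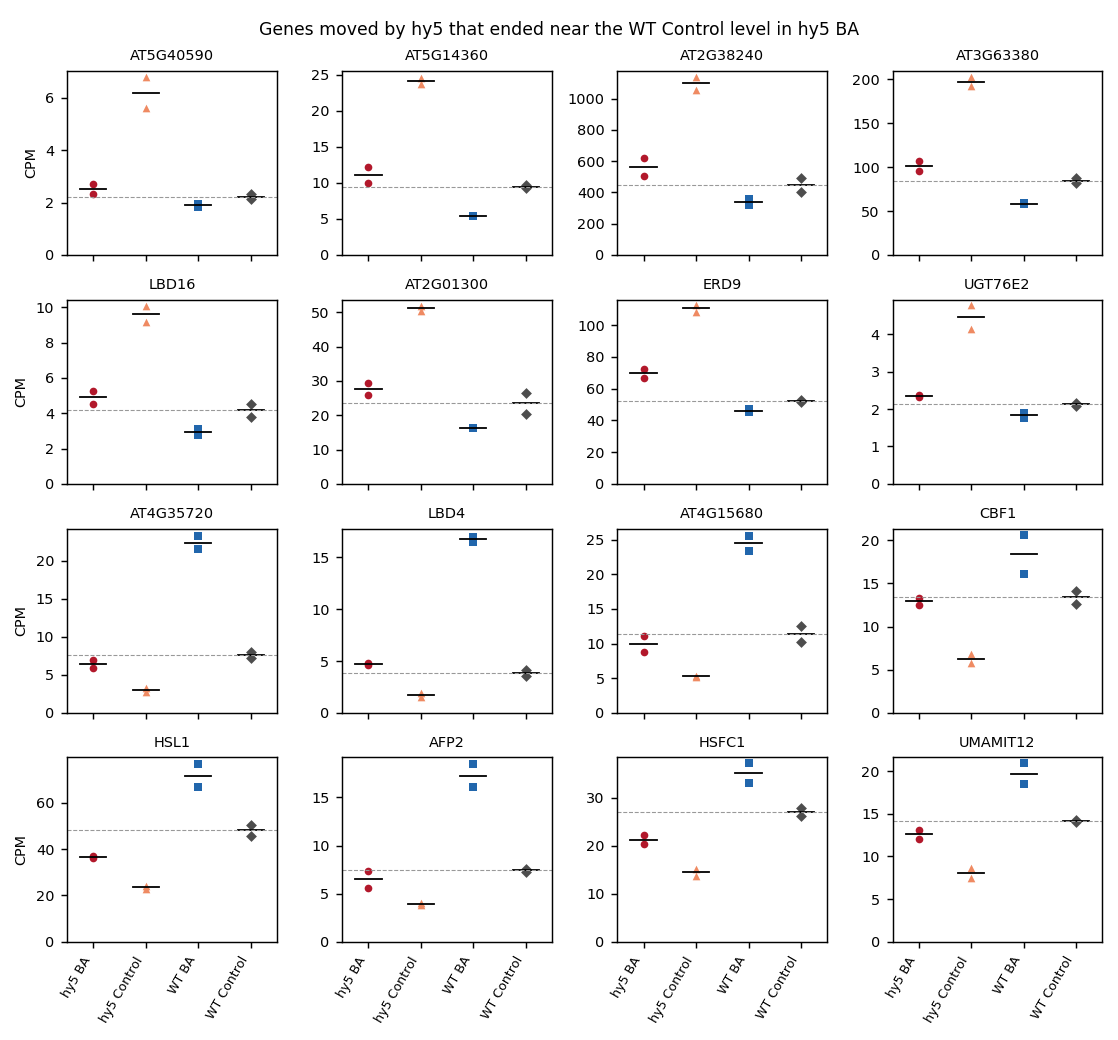
Level in CPM of 16 genes moved in hy5 Control and near WT Control in hy5 BA, 1 panel a gene, with a point for each library of hy5 BA, hy5 Control, WT BA and WT Control and the WT Control mean as a dashed line. In LBD16 the hy5 Control points lie above the line and the hy5 BA points at it, and in CBF1 the hy5 Control points lie below it.

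The converse set holds genes that BA moved in wild type and that were nonetheless near the untreated wild type in hy5 BA. Of 584 genes called and at least 1.5-fold different in WT BA against WT Control, 48 of 393 that had been higher and 49 of 191 that had been lower were near in hy5 BA. With a call the other way in hy5 BA against WT BA, where 5321 genes (23.5%) were called (3366 without hy5 BA replicate 2), 89 were left, 48 first higher and 41 first lower. That count was 160 without WT BA replicate 1 (53 first higher and 107 first lower), 58 without hy5 BA replicate 2 and 52 without hy5 BA 2 and hy5 Control 1. ZFP6, a zinc finger protein of trichome initiation, stood at 13.9 and 12.8 CPM in hy5 BA, 7.56 and 7.79 in hy5 Control, 32.7 and 34.9 in WT BA and 14.1 and 12.1 in WT Control, an interval of -0.18 to 0.23. ABO3, a WRKY factor of the abscisic acid response, stood at 4.85 and 4.7, 3.89 and 4.87, 8.45 and 9.75 and 4.45 and 4.5 CPM in the same groups. Both were highest in WT BA, which the choice of this set requires beside WT Control and hy5 BA. These genes too were picked by their measured values, so their levels are a description with no test. Among those first lower, AT5G43520, annotated as a C1 domain protein, stood at 20.3 and 18.4 CPM in hy5 BA, 40.3 and 46 in hy5 Control, 10.8 and 10.1 in WT BA and 22.9 and 19.4 in WT Control. The fructan exohydrolase cwINV6 stood at 58.7 and 52.7 CPM in hy5 BA, 97.7 and 104 in hy5 Control, 37.6 and 33.8 in WT BA and 71.6 and 61.4 in WT Control. For both genes the hy5 BA values lay between those of hy5 Control and WT BA. The growth regulator LNG2 followed the same order, at 29.4 and 28.3, 58.8 and 45.4, 20.8 and 17.1 and 33.3 and 34.9 CPM.

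Whether reads were counted by strand was not given in the sources used here, so reads of genes that overlap another gene cannot be told apart from those of the partner. Among the genes named, this holds for 4CL5, ARR6, ASN1, AT1G34047, AT3G47675, BBX25, CASP1, CKX5, EBF2, ERD9, ERS1, FAR1, HRE1, IAA5, LNG2, MRD1, PSBR, RAB18, SMR1, SPA3, SPA4 and TT4. AT5G33355 is 97.6% identical to AT3G59930 over 55.7% of its length, and AT3G47675 is 96.4% identical to AT2G39690 over 30.2%, and both are uncertain to that extent.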

How the data were processed

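Salmon's estimated counts, deposited by the authors per transcript, are the base of every test. The submitters' processing notes name Salmon and the build TAIR10, while its version and options were not given in the sources used here. As for scales, per the file headers, the tables also hold TPM values scaled by the authors, used here in 1 alternative, and transcript lengths. Estimated counts (48332 transcripts) were added up by locus code to 27628 genes and rounded, and 27420 genes were matched to the RefSeq annotation of TAIR10.1. In the libraries hy5 BA 2 (23.5%) and hy5 Control 1 (21.6%), transcripts often had an estimated count close to but not exactly a whole number, against 1.34 to 1.53% in the other libraries, so counts are also given with the pair left out, which was decided after seeing the data. Library totals lay between 29928501 and 35289411. Libraries of a group differed by more than sampling noise, with a chi-square per gene of 4.95 in hy5 BA and 7.64 in WT Control, so none was counted as a copy.

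Genes with low counts were removed (filterByExpr, minimum count 10, about 0.307 CPM), which left 22682. A robust quasi-likelihood model with 4 group means over all 8 libraries was fitted with edgeR 4.0.16 in R 4.3.3, with TMM scaling, two-sided p-values and Benjamini-Hochberg adjustment over the 22682 genes. CPM values are TMM-scaled, every fold is a log2 fold ± SE with n = 2 libraries a group, and the SE rests on a spread pooled over the groups. The alternatives were other scalings, no filter, a fit on the 4 libraries alone, DESeq2 1.42.0, scaled TPM, a replicate block, single libraries left out and other nearness limits. A total of 504 list members in 32 lists was used.

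The genes named are the 14 highest and 14 lowest folds (called, mean log2 CPM 1 or more, groups not overlapping), HY5 and HYH, the genes of largest first difference among those that ended near, interaction genes of smallest p and the called list members of smallest p, at most 4 a list. Other list members were named after their values were seen. The comparison, the members and the lists were chosen with earlier results of these data known. One type-B response regulator is not reported here.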

Additional observations from a re-analysis of the deposited data

Results flagged for a closer look

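A difference in the BA response between hy5 and WT, tested as the interaction at an adjusted p under 0.05 (edgeR's quasi-likelihood test), marked 17 of the genes named. Of all 22682 genes it marked 110 (0.485%), 11 positive and 99 negative. Some of the 17 were named for a small interaction p in each direction, so their number and split follow the naming rule. The difference is the log2 fold of BA in hy5 minus the log2 fold of BA in WT, with n = 2 libraries a group. Among cytokinin, ethylene and gibberellin genes it was -0.59 for the response regulator ARR4, -1.15 for the ACC synthase ACS5, -0.62 for ACS8 and -0.65 for the gibberellin oxidase GA2OX2. It was -1.19 for RSL4, which stood at 11.6 and 9.05 CPM in hy5 BA, 12.3 and 11.1 in hy5 Control, 10.7 and 12 in WT BA and 5.82 and 5.39 in WT Control, so that each single condition stood at about the level of both together. It was -0.53 for NAI1, a regulator of ER bodies, -0.49 for ERD9 and -0.61 for the pyruvate decarboxylase PDC1. Among genes with a product name only, it was -1.05 for AT3G28600, -1.14 for AT4G22620 and -0.79 for the mannose-binding lectin gene AT5G35940. AT5G36670, at 0 counts in WT Control, had an adjusted p of 0.00311 and no defined fold.

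The difference was positive in 5 genes. The plastid loci ATCG00490 and ATCG00020 had values of 0.95 and 0.98, with ATCG00490 at 9.52 and 9.05 CPM in hy5 BA, 5.05 and 5.49 in hy5 Control, 20.9 and 18.8 in WT BA and 21 and 22.4 in WT Control. The value was 1.24 for the plastid ATP synthase subunit gene ATPC1, 0.53 for LpxC4, whose sequence equals that of LpxC5, and 1.09 for AT3G47675. AT3G28600, AT4G22620 and AT5G36670 kept the call whichever single library was left out. With hy5 BA 2 and hy5 Control 1 both left out, AT3G28600 (adjusted p = 0.0505) and AT4G22620 (adjusted p = 0.0867) lost it, and from scaled TPM values none of the 3 had it. The other 14 lost it in at least 1 such run.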

How the results depend on the processing

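Among the genes named by rule, no called fold changed sign under an alternative, while folds close to 0 did (ZFP6, -0.09 to 0.14 without single libraries). List members named after their values were seen were followed only through the counts of their lists. Splits of calls did turn, as given beside the counts. For hy5 BA against WT Control the called genes numbered 4179 (without hy5 BA replicate 1) to 6738 when single libraries were left out, and 4118 with hy5 BA 2 and hy5 Control 1 both left out. Genes past 2-fold numbered 305 with DESeq2 and up to 468 in a fit on the 4 libraries alone, and 347 to 452 without single libraries. The DESeq2 set held 298 of the 440. Interaction calls numbered 61 with library size only, 294 with DESeq2, 0 with scaled TPM (edgeR; 2662 at an unadjusted p under 0.05), 6 to 331 without single libraries and 6 without both libraries named. For hy5 Control against WT Control the calls were 3685 to 5860 without single libraries and 3433 without both. For WT BA against WT Control they were 891 with scaled TPM and 841 to 2220 without single libraries. For hy5 BA against hy5 Control they were 1599 with scaled TPM, 1088 to 2867 without single libraries and 586 without both, and for hy5 BA against WT BA 3366 to 5658 and 2999. Near genes numbered 6495 at a narrower limit (a ratio of 5 to 4) and 18818 at 2-fold. Genes moved in hy5 Control and near in hy5 BA numbered 43 and 396 at those limits, 130 to 244 without single libraries and 73 without both. Genes moved in WT BA and near in hy5 BA numbered 16 and 158, 58 to 160, and 52. Fewer samples underlie the runs that leave libraries out, and for the scalings and DESeq2 the cause was not tested. The replicate numbers do not pair the samples (correlations of deviations between groups -0.07 to 0.02). With the replicate block the combined comparison had 6108 calls, 439 genes past 2-fold and 14206 near genes, and the interaction 101 calls.
Values below about 1 CPM, such as those of MYB12 and MRD1 in hy5 BA, rest on few counts, and for TT4 the hy5 BA libraries differ from each other. With 2 libraries a group, 1 library decides many calls of small folds.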
